A study of Drosophila melanogaster with 13 samples.

Results

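Heads of adult Drosophila melanogaster mutant for egg and Su(var)3-9, a pair of genes for histone methyltransferases, were compared with control heads across all genes on Affymetrix expression arrays. The comparison holds every array with values of these genotypes, 3 from the double mutant and 3 from the control, which are 6 of the 13 samples of the series. Control flies were yw; +/CyO and double mutants were yw; egg235/CyO; Su(var)3-906. Both carried the balancer chromosome CyO, and egg235 was present over CyO, so a second chromosome without that allele remained in the double mutant. The sources used here do not say whether 1 or both copies of Su(var)3-9 were mutant, and give neither age nor sex. Single mutants, yw; egg235/CyO and yw; +/CyO; Su(var)3-906, were measured on 3 arrays each and are used below only to place the double mutant's levels. All flies were reared at 25 °C and 70% humidity. The labels call the arrays of a genotype biological replicates but name no separate cultures, so p-values measure the spread between these samples.

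Both genes encode enzymes that methylate lysine 9 of histone H3, a mark that heterochromatin protein 1 binds and that keeps repeats and many genes of heterochromatin compact. Egg, the fly SETDB1, is known for its part on the small chromosome 4, and Su(var)3-9, the fly SUV39H, for its part in the heterochromatin around centromeres. Chromosome 4 is peculiar in that its genes are expressed although they lie in heterochromatin, and the protein encoded by Pof binds them. The adult head holds the compound eyes, the brain with its neurons and glia, muscle, the fat body that surrounds the brain, and circulating blood cells.

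Each value is the log2 level of a probe set, a group of short probes that measure a transcript, and a difference of 1 is a 2-fold change. Of 18769 probe sets, 13646 carried a single gene symbol and covered 11981 genes, each represented below by its brightest probe set. Array medians ran from 6.08 to 6.14 in the control and from 5.72 to 5.79 in the double mutant, and arrays do not give a depth, so that their number limits the precision. No probe set named for egg or Su(var)3-9 was used here, so the genotype labels were not checked by the mutated genes. Differences are double mutant minus control, values after ± are standard errors from limma fitted to all 12 arrays of the series, and a gene is said to rise or fall where the Benjamini-Hochberg adjusted p over all probe sets was under 0.05. Levels of different genes are not compared, since probe sets differ in brightness.

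Control heads carried higher levels of transcripts from the gut, testis, accessory gland and ejaculatory bulb. The median log2 level of 44 gut genes was 9.64 to 10.18 on the control arrays and 4.81 to 5.6 on the double mutant arrays. For 41 testis genes it was 7.06 to 7.71 against 4.68 to 4.89, and for 29 genes of the accessory gland and ejaculatory bulb 10.68 to 11.07 against 5.31 to 7.22. These lists separate the 2 groups on every array. Muscle and ovary lists differed less, with medians of 11.97 to 12.46 against 11.26 to 11.32 and 4.68 to 4.87 against 4.47 to 4.61. The single mutants lay below the control as well: gut medians were 5.93 to 6.72 in the egg mutant and 4.94 to 6.45 in the Su(var)3-9 mutant, testis medians 5.49 to 5.66 and 4.4 to 4.95, and accessory gland medians 8.38 to 8.74 and 4.35 to 6.29. Every comparison with the control below is thus made against the arrays with the highest levels of the gut, testis and accessory gland lists. Double mutant replicate 2 was the highest of the 3 double mutant arrays for 26 of the 29 accessory gland genes and for 31 of the 44 gut genes. Whether RNA of these tissues has a part in the other differences was not tested, and in whole heads fewer cells of a type and less RNA per cell cannot be told apart.

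Widespread, mostly small rises and fewer but far larger falls set the double mutant apart from the control. Of 18769 probe sets, 7589 (40.4%) were higher and 3238 (17.3%) lower in the double mutant, and of 11981 genes 5060 (42.2%) were higher and 2848 (23.8%) lower. The median change was 0.48 among the genes that rose and -1.37 among those that fell. At least 2-fold changes were seen for 440 probe sets that rose (2.34%) and 1845 that fell (9.83%), or for 307 genes that rose (2.56%) and 1664 that fell (13.9%), and at least 16-fold gene changes for 1 and 221. The difference of the median gene was 0.17. The split between directions depends on how arrays are scaled. With every array centred on its median 14852 probe sets were higher and 2299 lower, after quantile normalisation 8021 and 3315, and after cyclic loess 2988 and 5016. Each gene list below is read beside the median of all genes, which was 0.52 after centring, 0.18 after quantile normalisation and -0.07 after loess. Counts of a list after centring or loess shift with those of all genes. Of 11981 genes 8650 were higher and 2060 lower after centring, 5388 and 2895 after quantile normalisation, and 2052 and 4303 after loess.

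**Figure D1:**
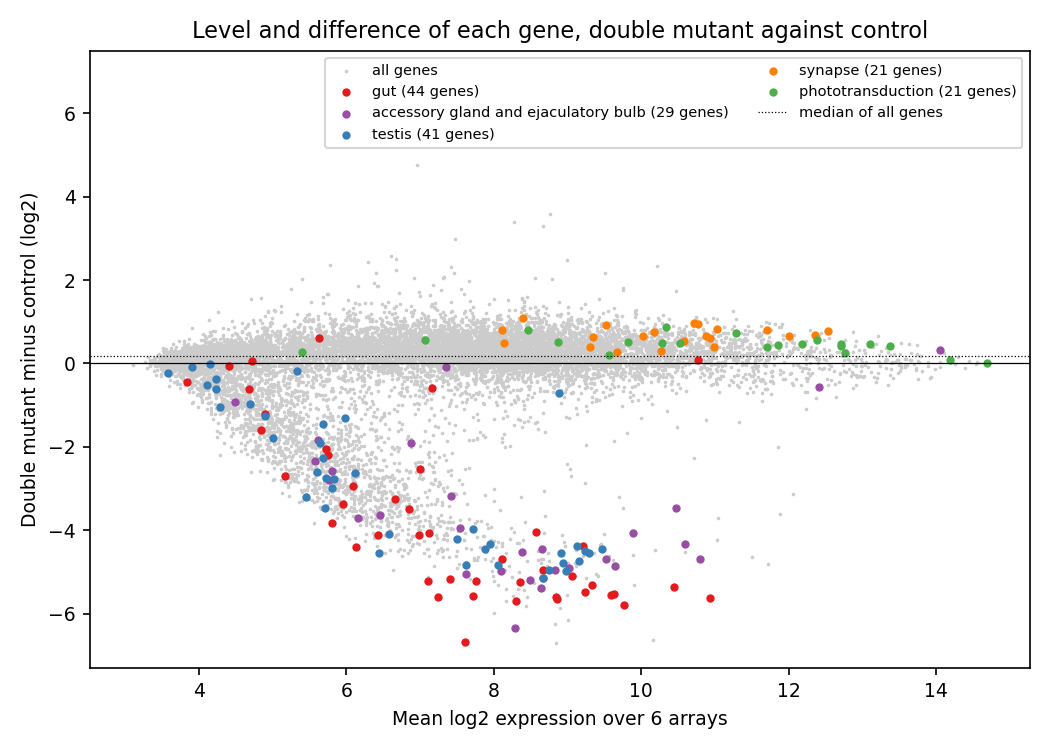
Difference between double mutant and control (log2, vertical axis) against the mean log2 expression over the 6 arrays (horizontal axis), one point per gene for 11981 genes, with 5 gene lists coloured. Most gut, testis and accessory gland genes lie in the lower cloud, with list medians of -4.24, -2.98 and -4.07. That cloud also holds many genes of no coloured list: 1664 genes fell at least 2-fold, beside 37, 32 and 25 members of these lists. Synapse and phototransduction genes lie in a narrow band above 0.

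The largest rise was that of CG3397, whose log2 level was 4.45, 4.71 and 4.6 on the control arrays and 9.14, 9.31 and 9.56 on the double mutant arrays. The groups lay far apart, by 4.75 ± 0.12 (adjusted p = 4.53e-10), a 26.9-fold difference. TotC, a Turandot gene for a humoral factor secreted under stress, was at 6.77, 7.55 and 6.6 in the control and at 10.55, 10.53 and 10.57 in the double mutant. Control replicate 2 was the highest of its group, and the difference of 3.58 ± 0.21 exceeded the spread (adjusted p = 3.17e-08). Also among the largest rises was path, which encodes the amino acid transporter Pathetic, with 7.08, 7.03 and 6.95 against 10.11, 10.34 and 10.49 and a difference of 3.29 ± 0.13 (adjusted p = 4.32e-09). Its arrays lay close together within each group. Only genes without overlap between the groups could enter the 30 largest rises or falls, so separate arrays are no added evidence for them.

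Among the other large rises were a gene of GABA breakdown and one of histamine recycling. Gabat, for the transaminase that degrades GABA, was at 5.46, 5.5 and 5.27 in the control and at 7.65, 8.09 and 8.04 in the double mutant (difference 2.52 ± 0.18, adjusted p = 1.3e-07). Balat, for the beta-alanine transporter of the glia that recycle histamine in the eye, was at 5.29, 5.27 and 5.39 and 7.6, 7.58 and 7.31 (difference 2.18 ± 0.11, adjusted p = 1.39e-08). Their arrays were separate too, as that ranking required. Further genes among the 30 largest rises were GILT3, a homolog of a lysosomal thiol reductase (2.42 ± 0.14), spartin, for an endosomal trafficking protein (2.05 ± 0.16), and l(3)mbn, named for a blood neoplasm phenotype (2.07 ± 0.21). CG11357 (2.57 ± 0.1), CG30083 (2.32 ± 0.1), CG14567 (2.17 ± 0.08), CG31676 (2.06 ± 0.07), CG7900 (2.06 ± 0.07), CG13794 (1.97 ± 0.13), CG9150 (1.85 ± 0.14) and CG11668 (1.79 ± 0.08) belong to the same 30 and are named only by their identifiers.

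**Figure D2:**
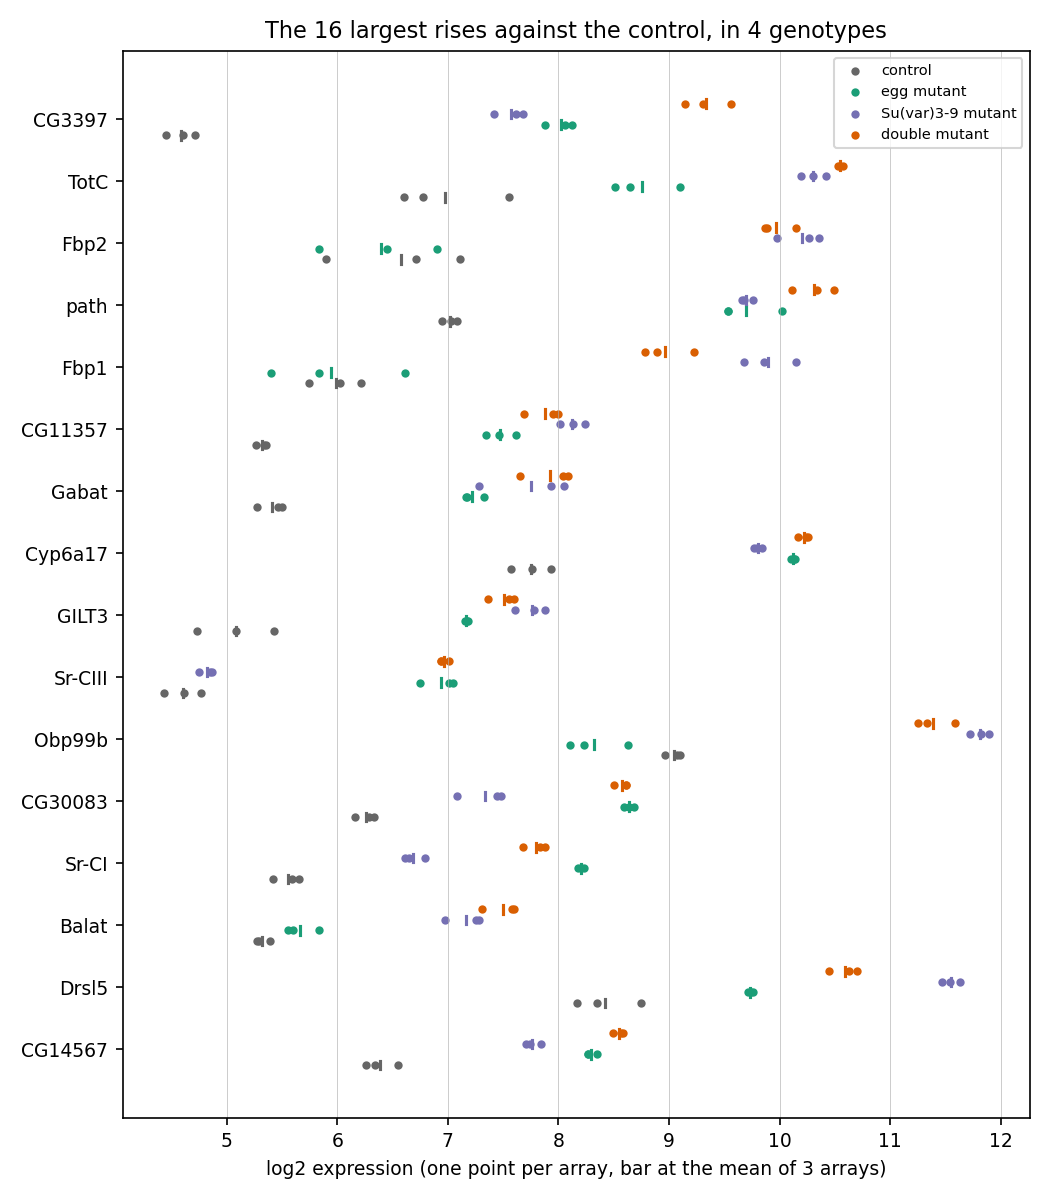
Log2 expression (horizontal axis) of the 16 largest rises against the control, one point per array and a bar at the mean of 3 arrays, in the 4 genotypes. CG3397 sits below 5 in the control and above 9 in the double mutant, while Fbp1, Fbp2 and Obp99b are high where Su(var)3-9 is mutant and Sr-CIII is high where egg is mutant.

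The single mutants show where the double mutant's level differed from both. Of 11981 genes, 84 (0.701%) were higher and 14 (0.117%) lower in the double mutant than in the control, the egg mutant and the Su(var)3-9 mutant, each by its own contrast with adjusted p under 0.05. The counts fell to 48 and 52 genes higher without double mutant replicate 2 or 3, and ranged from 8 to 23 genes lower when any 1 of the 6 arrays was left out. At least 2-fold differences from each of the 3 were seen for 6 genes higher and 1 lower. Of these 7, CG14419, AttD and CG3397 are among the genes named by size or list, and CG3588, lncRNA:CR32368, Spn88Eb and alpha-Est2 were chosen after their values were seen.

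CG14419 was at 6.45, 6.52 and 6.27 in the double mutant. Elsewhere it stayed at 4.43, 4.37 and 4.35 in the control, 4.18, 4.07 and 4.21 in the egg mutant and 4.17, 4.05 and 4.29 in the Su(var)3-9 mutant. The difference was 2.03 ± 0.09 from the control (adjusted p = 6.37e-09), 2.26 ± 0.09 from the egg mutant and 2.24 ± 0.09 from the Su(var)3-9 mutant, so neither single mutant showed a rise of the size seen in the double. AttD, for the antimicrobial peptide Attacin-D, was likewise highest in the double mutant, at 6.24, 6.27 and 5.92. It was at 4.57, 4.18 and 4.35 in the control, 4.41, 4.63 and 4.66 in the egg mutant and 4.55, 4.23 and 4.33 in the Su(var)3-9 mutant. Its difference from the control was 1.77 ± 0.13 (adjusted p = 1.91e-07). CG3588, lncRNA:CR32368 and Spn88Eb, the last a serpin gene for a protease inhibitor, rose by 1.55 ± 0.14, 1.36 ± 0.22 and 1.21 ± 0.1 over the control. Differences of the single mutants from the control for these 3 genes ran from -0.29 ± 0.22 for lncRNA:CR32368 to 0.13 ± 0.14 for CG3588, both in the Su(var)3-9 mutant. CG3397 differed in kind: its level already stood at 8.02 in the egg mutant and 7.57 in the Su(var)3-9 mutant, and the double mutant exceeded these by 1.32 ± 0.12 and 1.77 ± 0.12. In the other direction alpha-Est2, a carboxylesterase gene, was at 6.39, 6.31 and 5.87 in the double mutant against 8.34, 8.7 and 8.5 in the control, 7.77, 7.77 and 7.78 in the egg mutant and 7.9, 7.84 and 7.78 in the Su(var)3-9 mutant. The fall from the control was -2.32 ± 0.13 (adjusted p = 1.99e-08), and the double mutant lay -1.58 ± 0.13 and -1.65 ± 0.13 from the single mutants.

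**Figure D3:**
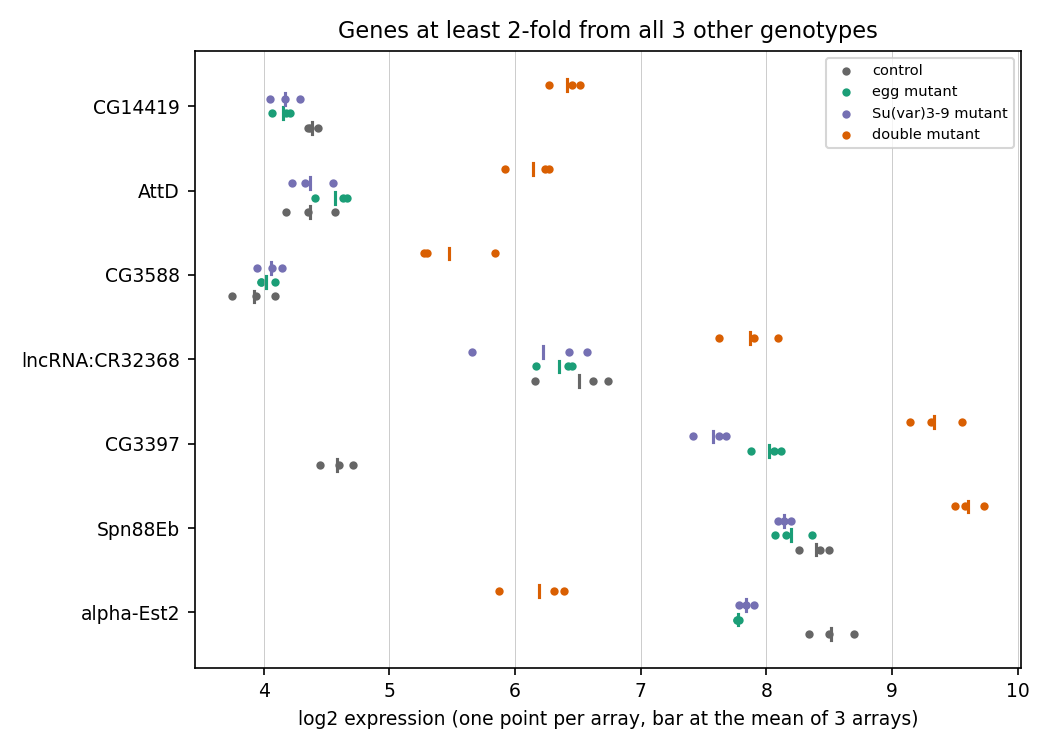
Log2 expression (horizontal axis) of the 7 genes at least 2-fold from all 3 other genotypes, one point per array and a bar at the mean of 3 arrays. In CG14419, AttD, CG3588, lncRNA:CR32368 and Spn88Eb the 3 other genotypes lie together and the double mutant stands to the right, and in alpha-Est2 it stands to the left.

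Smaller differences from all 3 genotypes included several enzymes of metabolism, chosen here after their values were seen. Gart and Prat2, for enzymes of purine synthesis, and Shmt, for serine hydroxymethyltransferase of one-carbon metabolism, rose over the control by 0.47 ± 0.09, 0.34 ± 0.1 and 0.61 ± 0.1. In the egg mutant the same 3 genes lay below the control, by -1.27 ± 0.09, -0.92 ± 0.1 and -1.27 ± 0.1. After loess the rise of Shmt still passed, while Gart and Prat2 differed from the control by 0.18 and 0.07 and did not pass. Among the genes that were lower than in every other genotype, Ugt35C1, for a glycosyltransferase, differed from the control by -2.19 ± 0.1, FASN2, for a fatty acid synthase, by -2.61 ± 0.16, and Cln3, homolog of a human gene of lysosomal storage disease, by -1.64 ± 0.12. Rab26, for a small GTPase of vesicle transport, was higher in both single mutants than in the control (means 7.26 and 7.07 against 6.63) and lower in the double mutant (5.86).

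Nearly all measured genes of chromosome 4 were higher in the double mutant. Of 65, 58 rose and 6 fell, with a median difference of 0.55 against 0.17 for all genes, and of all genes 42.2% rose. On the other arms the share that rose was 37.5% on 2L, 42.1% on 2R, 42% on 3L, 41.4% on 3R and 49% on X, with medians of 0.12 to 0.23. After cyclic loess 31 chromosome 4 genes were higher and 6 lower, with a median of 0.28 beside -0.07 for all genes, and after centring 59 were higher and 1 lower. No set test was run on these counts.

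Among the largest rises there was CG31997, at 10.57, 10.67 and 10.6 in the control and 11.85, 11.93 and 11.84 in the double mutant (difference 1.26 ± 0.06, adjusted p = 1.43e-08). The transcription factor gene onecut was at 8.07, 8.01 and 7.79 and 8.99, 9.25 and 9.36 (difference 1.24 ± 0.17, adjusted p = 6.5e-05). Both genes' groups were separate by more than their whole spread. Kif3C, for a kinesin motor (1.22 ± 0.11), CG32017 (1.11 ± 0.1), yellow-h, of the yellow family (1.07 ± 0.13), dati, for a zinc finger protein (1.02 ± 0.07), the glutamate receptor gene mGluR (0.98 ± 0.09), the activin ligand gene Actbeta (0.89 ± 0.12), Hcf, for host cell factor (0.88 ± 0.16), the forkhead gene fd102C (0.87 ± 0.1) and the synaptotagmin gene Syt7 (0.83 ± 0.09) followed. The 6 that fell were CG32006 (-1.47 ± 0.18), the projectin gene bt of muscle (-0.55 ± 0.1), CG1674 (-0.47 ± 0.09), the ATP synthase subunit gene ATPsynbeta (-0.33 ± 0.07), Rnf11 (-0.26 ± 0.08) and Gyf (-0.24 ± 0.08). Of these bt, CG1674, Rnf11 and Gyf were named to account for the count, after their values were seen, as were the genes named for small counts in the next paragraph other than Gat, Kif3C and CG31997. All 6 were still lower under loess, but after centring CG32006 alone passed, and ATPsynbeta, Rnf11 and Gyf had the opposite sign, at 0.03, 0.09 and 0.12.

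The double mutant's chromosome 4 levels lay close to those of the single mutants. The median difference was -0.01 from the egg mutant and 0.06 from the Su(var)3-9 mutant. Only 4 of the 65 genes (Zip102B, Rnf11, CG33978 and myo) were higher and 2 (Gat and Ekar) lower than in the egg mutant, where 9.61% and 10.1% of all genes were. Against the Su(var)3-9 mutant 4 (CG11155, Zip102B, Mpv17 and CG31997) were higher and 2 (Rnf11 and Kif3C) lower, beside 3.09% and 2.9% of all genes. Gat, for the GABA transporter of glia, was at 8.36, 8.53 and 8.38 in the control, 9.51, 9.49 and 9.37 in the egg mutant, 8.54, 8.4 and 8.69 in the Su(var)3-9 mutant and 8.66, 8.87 and 8.69 in the double mutant. Its rise over the control was 0.32 ± 0.09 in the double mutant and 1.04 ± 0.09 in the egg mutant, and the former did not pass after loess (0.0) or quantile normalisation (0.22). The double mutant lay -0.72 ± 0.09 from the egg mutant (adjusted p = 0.000269). Zip102B, for a zinc transporter, was the chromosome 4 gene higher than in all 3 other genotypes, at 9.27, 9.36 and 9.29 against 8.84, 8.94 and 8.73 in the control. Its difference from the control did not pass after loess (0.15).

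**Figure D4:**
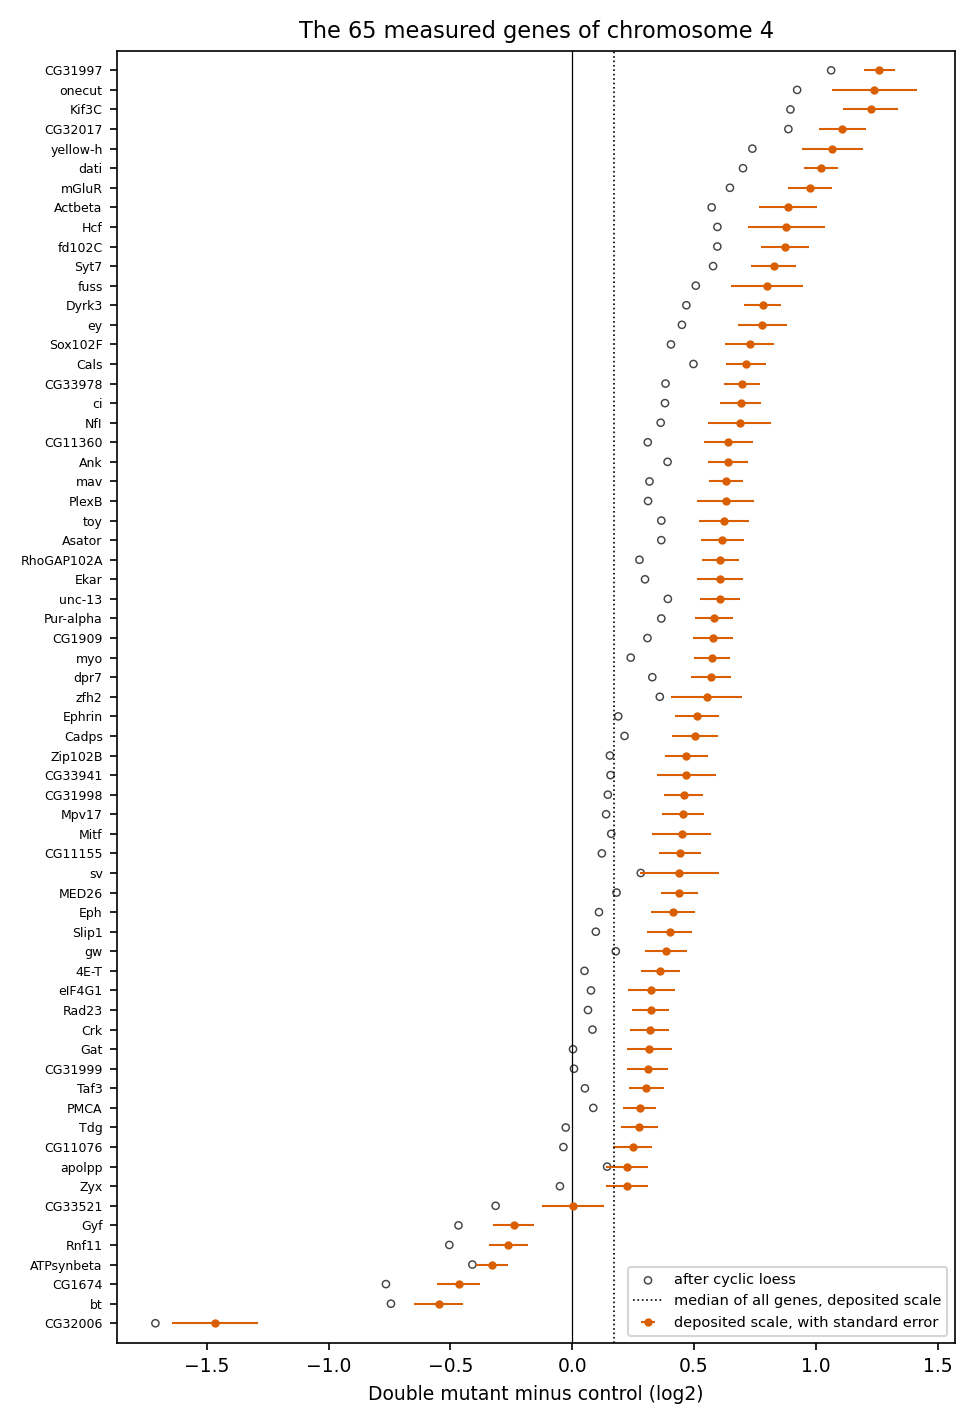
Difference between double mutant and control (log2, horizontal axis) for the 65 measured genes of chromosome 4, with standard errors from limma fitted to all 12 arrays. Open circles give the difference after cyclic loess. Most genes lie to the right of the dotted line at the median of all genes, and CG32006 lies farthest to the left.

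The pattern near the centromeres was less one-sided than on chromosome 4 and changed with the scale, as did that of all genes. In windows at the centromere ends of the arms (from 22 Mb on 2L and X and from 23 Mb on 3L, and up to 5.4 Mb on 2R and 4.5 Mb on 3R), 55.6% of 187 genes rose and 16% fell, beside 42.2% and 23.8% of all genes, with a median of 0.24. In the windows after centring 151 were higher and 20 lower, and after loess 35 and 47. Of all 11981 genes 8650 were higher and 2060 lower after centring, and 2052 and 4303 after loess. Within 2 Mb of egg 40.9% of 379 genes rose and 27.7% fell, and within 2 Mb of Su(var)3-9 45.5% and 23.8% of 411, shares near those of all genes. The largest differences in the windows were falls: CG14645 (-5.32 ± 0.75), CG15219 (-4.72 ± 0.49), the fatty acid synthase gene FASN3 (-4.48 ± 0.37), the testis gene COX4L (-4.21 ± 0.22) and Scp1, for a sarcoplasmic calcium-binding protein of muscle (-3.61 ± 0.44). CG31528 (-3.49 ± 0.21), CG31601 (-3.17 ± 0.21), CG14644 (-2.79 ± 0.17), ttm3 (-2.52 ± 0.16), CG31693 (-2.4 ± 0.15), the muscle troponin gene TpnC41C (-2.27 ± 0.15) and CG31525 (-2.17 ± 0.14) made up the rest of the 12.

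Of 43 genes for H3K9 methylation, its readers and related chromatin proteins, 28 rose, 3 fell and the median difference was 0.32, and after centring 39 were higher and 3 lower, and after loess 12 and 8 (median 0.01). The kinase gene JIL-1, whose product phosphorylates histone H3, rose by 0.91 ± 0.13, ADD1, homologous to ATRX, by 0.86 ± 0.13, Su(var)3-7, for an HP1 partner, by 0.77 ± 0.13, Set8, for the histone H4 methyltransferase PR-Set7, by 0.75 ± 0.12, and Su(var)3-3, for the demethylase LSD1, by 0.69 ± 0.07. The falls were those of Pof, HP6 (-1.58 ± 0.13) and HP1e (-0.67 ± 0.14), the last pair from the HP1 family. Pof was at 10.57, 9.89 and 10.17 in the control and 7.15, 7.53 and 6.78 in the double mutant, with no overlap and a difference of -3.06 ± 0.2 (adjusted p = 6.19e-08), while chromosome 4 genes, which its product binds, were mostly higher. It was lower in the single mutants too, with means of 8.0 and 6.83 against 10.21.

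Dosage compensation and sex determination genes rose in 11 of 14 cases (78.6%, beside 42.2% of all genes). Their median was 0.45, and after centring 13 were higher and 1 lower, and after loess 5 and 2. The 1 fall, that of Pof given above (-3.06 ± 0.2), was the largest change of the list. The helicase gene mle rose by 1.08 ± 0.18 and the MSL complex genes msl-3 and msl-1 by 0.79 ± 0.16 and 0.66 ± 0.11. The sex determination genes dsx and Sxl rose by 0.69 ± 0.08 and 0.58 ± 0.14. Genes for piRNA and small interfering RNA proteins, which silence transposons, moved less: 5 of 28 rose, 6 fell and the median was -0.03, while after centring 17 were higher and 2 lower, and after loess 0 and 10. Germline piRNA genes made up the falls, with squ at -1.65 ± 0.19, mael at -1.13 ± 0.16, aub at -0.58 ± 0.14, krimp at -0.55 ± 0.1, shu at -0.52 ± 0.13 and del at -0.5 ± 0.16, and the small interfering RNA gene Dcr-2 rose by 0.34 ± 0.09. After centring aub, krimp, shu and del did not pass, and after loess neither Dcr-2 (0.01) nor Sxl (0.28) did.

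Photoreceptor genes were higher in the double mutant. Of 21 phototransduction genes, 18 rose, none fell and the median difference was 0.47, and after centring 21 were higher and 0 lower, and after loess 13 and 0. The phosphatase gene rdgC, which acts on rhodopsin, was at 9.96, 9.97 and 9.77 in the control and 10.67, 10.78 and 10.84 in the double mutant (difference 0.86 ± 0.08, adjusted p = 1.77e-06). The protein kinase C gene inaC was at 10.85, 11.1 and 10.81 and 11.59, 11.6 and 11.76 (difference 0.73 ± 0.09, adjusted p = 2.03e-05). In both genes every double mutant array exceeded every control array. The lipase gene inaE rose by 0.79 ± 0.17, the extracellular matrix gene eys of the eye by 0.5 ± 0.11 and the G protein subunit gene Gbeta76C by 0.41 ± 0.09. The arrestin genes Arr1 and Arr2, among the brightest probe sets, differed by 0.08 ± 0.08 and 0.01 ± 0.07 and did not pass. Against the egg mutant 8 of the 21 genes were lower and none higher, inaC among them (-0.42 ± 0.09).

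Genes of the visual chromophore and of histamine, the transmitter of photoreceptors, rose in 10 of 12 cases (median 0.73), and after centring 10 were higher and 1 lower, and after loess 9 and 2. The retinoid-binding protein gene pinta rose by 1.42 ± 0.08, the histamine receptor gene ort by 1.36 ± 0.08, and e and t, for the enzymes Ebony and Tan that conjugate and release histamine, by 1.09 ± 0.18 and 1.06 ± 0.1. The carotenoid genes ninaB and santa-maria rose by 0.81 ± 0.12 and 0.65 ± 0.08, ninaG by 0.64 ± 0.12, Hdc, for the enzyme that makes histamine, by 0.56 ± 0.09, and the transporter gene CarT by 0.55 ± 0.13. CG14691 fell by 1.53 ± 0.15 and ninaD, for a scavenger receptor that takes up carotenoids, by 0.37 ± 0.12. The arrays of ninaD overlapped, at 7.58, 7.23 and 7.67 in the control and 7.09, 7.26 and 7.0 in the double mutant, while the Su(var)3-9 mutant stood at 8.75, 9.03 and 8.82. After centring the fall of ninaD (-0.02) and after loess the rise of CarT (0.23) did not pass. Balat, pinta, e and ort were higher than in the egg mutant, by 1.84 ± 0.11, 1.53 ± 0.08, 1.35 ± 0.18 and 0.6 ± 0.08. Eye pigment genes rose in 12 of 16 cases with a median of 0.45, led by se (0.9 ± 0.1) and Pu (0.79 ± 0.09) of pteridine synthesis and car (0.81 ± 0.1) of pigment granule trafficking, and after centring 16 were higher and 0 lower, and after loess 5 and 3.

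The direction of the clock genes depended on the scale, as it did over all 11981 genes (8650 higher and 2060 lower after centring, 2052 and 4303 after loess). Of 12, 8 rose and 1 fell, and after centring 11 were higher and 1 lower, and after loess 1 and 2. Clk, for the activator at the core of the clock, was at 8.51, 8.44 and 8.43 in the control and 7.72, 7.67 and 7.85 in the double mutant and fell by 0.71 ± 0.07 (adjusted p = 4.64e-06). Its partner cyc rose by 0.52 ± 0.1, Pdp1, for an activator of Clk, by 1.14 ± 0.12, vri, for its repressor, by 0.27 ± 0.09, and the light receptor gene cry by 0.45 ± 0.1. The genes per and tim, for the repressors that oppose Clk, differed by 0.2 ± 0.1 and -0.07 ± 0.09, the neuropeptide gene Pdf by 0.24 ± 0.1, and all 3 had overlapping arrays and did not pass. The remaining rises were cwo (0.41 ± 0.07), the kinase gene dco (0.38 ± 0.07), the receptor gene Pdfr (0.41 ± 0.1) and jet (0.2 ± 0.07). After loess only Pdp1 was higher, at 0.87, and Clk and tim were lower, at -1.04 and -0.34. After centring Clk was still lower, at -0.36, while tim was higher, at 0.28. The hour at which heads were collected is not given in the sources used here. Against the egg mutant Clk, vri, Pdf, tim, per and cwo were lower, by -0.84 ± 0.07, -0.71 ± 0.09, -0.7 ± 0.1, -0.63 ± 0.09, -0.41 ± 0.1 and -0.29 ± 0.07.

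Synapse genes moved almost as a block. Of 21, 20 rose, none fell and the median difference was 0.66, and after centring 21 were higher and 0 lower, and after loess 16 and 0. The SNARE gene Snap25 was at 12.15, 12.2 and 12.06 in the control and 12.87, 12.95 and 12.93 in the double mutant (difference 0.78 ± 0.08, adjusted p = 5.41e-06). The dynamin gene shi, whose product pinches off synaptic vesicles, was at 9.92, 10.32 and 10.45 and 11.49, 10.61 and 11.52 (difference 0.98 ± 0.22, adjusted p = 0.00195). Both sets of arrays were separate. The active zone gene Rbp rose by 1.09 ± 0.15, the endophilin gene EndoA by 0.94 ± 0.09, and the vesicle transporter genes VAChT and VGlut, for acetylcholine and glutamate, by 0.93 ± 0.16 and 0.79 ± 0.13. Vmat, for the monoamine transporter, differed by 0.28 ± 0.12 with overlapping arrays and was the member that did not pass. Against the Su(var)3-9 mutant none of the 21 genes differed (limma, 1 at an unadjusted p under 0.05), and against the egg mutant cac, for a calcium channel, and Synj, for synaptojanin, both named after their values were seen, were lower by -0.29 ± 0.08 and -0.26 ± 0.08.

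Channels and transmitter receptors rose in 23 of 28 cases (median 0.55), and after centring 25 were higher and 0 lower, and after loess 12 and 2. The NMDA receptor gene Nmdar1 was at 6.55, 6.69 and 6.39 in the control and 7.76, 7.85 and 8.0 in the double mutant (difference 1.33 ± 0.14, adjusted p = 4.84e-06). The potassium channel genes Shab, Shal and Sh rose by 1.05 ± 0.16, 0.97 ± 0.11 and 0.75 ± 0.11. The falls were those of Irk1 (-0.54 ± 0.14) and Irk2 (-0.3 ± 0.07), for inward rectifiers, and after centring, at -0.19 and 0.05, neither passed. In the GABA list 9 of 11 rose: beside Gabat and Gat these were Gad1, for the enzyme that makes GABA (0.67 ± 0.07), the receptor genes GABA-B-R3 (0.66 ± 0.12) and Rdl (0.57 ± 0.09), the vesicle transporter gene VGAT (0.52 ± 0.09), the glutamine synthetase genes Gs2 (0.53 ± 0.07) and Gs1 (0.33 ± 0.12) and the glutamate dehydrogenase gene Gdh (0.28 ± 0.07). After loess Gat, Gs1 and Gdh did not pass, and the GABA list had 6 genes higher. Ssadh (0.19 ± 0.08) and GABA-B-R1 (0.22 ± 0.09) did not pass. Monoamine genes rose in 11 of 13 cases (median 0.79, after centring 13 higher and 0 lower, after loess 10 and 0), with the serotonin receptor gene 5-HT1B at 1.14 ± 0.11, the dopamine receptor gene Dop1R1 at 1.1 ± 0.09 and the tyrosine hydroxylase gene ple at 1.02 ± 0.11.

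Neuropeptide genes rose in 14 of 20 cases (median 0.56, after centring 19 higher and 1 lower, after loess 10 and 2), and 1 fell. The insulin-like peptide gene Ilp5, of the insulin-producing cells of the brain, was at 7.68, 8.37 and 7.82 in the control and 9.31, 9.23 and 9.19 in the double mutant (difference 1.28 ± 0.14, adjusted p = 7.71e-06). Ilp2, of the same cells, rose by 0.78 ± 0.1, the short neuropeptide F gene sNPF by 1.18 ± 0.13, SIFa by 1.1 ± 0.11 and Mip by 1.02 ± 0.1. Akh, for the adipokinetic hormone that mobilises energy stores, fell by 0.98 ± 0.17, with 6.1, 5.9 and 5.99 against 5.0, 5.28 and 4.77. Its producing cells lie in the corpora cardiaca, beside the gut at the neck. Among 17 glia genes 12 rose and 1 fell (median 0.53, after centring 16 higher and 1 lower, after loess 9 and 2), with nrv2, for a sodium pump subunit, at 0.83 ± 0.13, wrapper, of midline glia, at 0.82 ± 0.14 and moody, of the blood-brain barrier, at 0.65 ± 0.09. The fall was that of the transporter gene CG3168 (-1.14 ± 0.08).

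Fat body genes split between a few large rises and many that hardly differed. Of 18, 11 rose and none fell (median 0.36, after centring 18 higher and 0 lower, after loess 6 and 1). Fbp2, for a fat body protein, was at 6.71, 5.9 and 7.11 in the control and 9.89, 10.15 and 9.87 in the double mutant (difference 3.4 ± 0.29, adjusted p = 7.91e-07). Fbp1, for the receptor that takes up storage protein, was at 6.02, 5.74 and 6.21 and 8.89, 9.23 and 8.78 (difference 2.98 ± 0.25, adjusted p = 7.28e-07). Both are a clear step above the control on all 3 arrays. The storage protein gene Lsp2 rose by 1.73 ± 0.27 and Obp99b, for an odorant-binding protein, by 2.35 ± 0.13. All 4 were near or below the control in the egg mutant, where Fbp2 had a mean of 6.39 and Obp99b of 8.32, and high in the Su(var)3-9 mutant, at 10.2 and 11.81. Fbp2, Lsp2, Obp99b and Fbp1 accordingly lay 3.57 ± 0.29, 3.4 ± 0.27, 3.07 ± 0.13 and 3.02 ± 0.25 above the egg mutant. The yolk protein genes Yp1, Yp2 and Yp3, expressed by the fat body of females, differed by -0.01 ± 0.06, 0.16 ± 0.09 and -0.01 ± 0.07, with overlapping arrays, and did not pass.

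Nutrient and insulin genes moved in both directions, 8 of 13 up and 4 down, and after centring 8 were higher and 2 lower, and after loess 3 and 5. AkhR, for the receptor of adipokinetic hormone, rose by 1.0 ± 0.1 while its ligand fell. The amino acid transporter genes mnd and slif rose by 0.62 ± 0.07 and 0.5 ± 0.1, and path, of the same class, led the list. Pepck2, for an enzyme of gluconeogenesis, fell by 1.81 ± 0.14 (adjusted p = 3.91e-07), Pepck1 by 0.3 ± 0.07 and fbp, for fructose bisphosphatase, by 0.23 ± 0.08. After centring Pepck1 and fbp had the opposite sign, at 0.05 and 0.13, and after loess slif did not pass (0.18).

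Stress and immune genes rose in part. In the Turandot and JAK/STAT list 5 of 8 rose (62.5%, beside 42.2% of all genes) and none fell. After centring 8 were higher and 0 lower, and after loess 5 and 0. The rises were those of TotC, TotB (0.78 ± 0.16), Stat92E, for the pathway's transcription factor (0.68 ± 0.09), vir-1 (0.66 ± 0.08) and Tep4 (0.6 ± 0.09). Listericin (0.43 ± 0.18), TotZ (0.21 ± 0.1) and TotF (-0.01 ± 0.12) did not pass. Among heat shock genes 7 of 14 rose and 2 fell, with a median of 0.19, near that of all genes, and after centring 12 were higher and 2 lower, and after loess 2 and 3. Hsp68, of the inducible HSP70 family, was at 8.24, 8.44 and 8.34 in the double mutant against 7.61, 7.28 and 7.15 in the control, 7.59, 7.64 and 7.65 in the egg mutant and 7.09, 7.37 and 7.22 in the Su(var)3-9 mutant, above all 3 genotypes (difference from control 0.99 ± 0.11, adjusted p = 1.12e-05). Hsp26 was likewise above all 3, by 0.41 ± 0.11 from the control, which did not pass after loess (0.1). The cochaperone gene stv rose by 1.08 ± 0.09. The falls were those of Hsc70-2 (-2.91 ± 0.19) and Hsc70-1 (-0.7 ± 0.08).

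Antimicrobial peptide genes went up in 8 of 16 cases and down in 1 (median 0.37, after centring 14 higher and 1 lower, after loess 5 and 1). These shares, 50% and 6.25%, stand beside 42.2% and 23.8% of all genes. Beside AttD these included the drosomycin-like genes Drsl5 and Drsl4 (2.17 ± 0.13 and 2.02 ± 0.09), edin, induced by infection (1.87 ± 0.16), and the defensin gene Def (0.52 ± 0.12, not past the threshold after loess), and Drsl3 fell by 1.44 ± 0.31. Mtk, for metchnikowin, differed by 0.44 ± 0.2 and did not pass. Recognition and signalling genes of immunity rose in 12 of 17 cases (median 0.44, after centring 16 higher and 1 lower, after loess 6 and 3), with the Toll receptor gene Tl at 0.79 ± 0.09 and the NF-kappaB gene Rel at 0.63 ± 0.08, and the amidase gene PGRP-SC2, expressed in gut, fell by 1.41 ± 0.15.

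Blood cell genes went up in 14 of 20 cases and down in 2, with a median of 0.52, and after centring 18 were higher and 1 lower, and after loess 10 and 4. Sr-CIII, for a scavenger receptor of phagocytic blood cells, was at 4.43, 4.61 and 4.77 in the control, 7.01, 6.75 and 7.05 in the egg mutant, 4.85, 4.87 and 4.75 in the Su(var)3-9 mutant and 6.94, 6.94 and 7.01 in the double mutant. The double mutant thus stood with the egg mutant (difference 0.03 ± 0.1, adjusted p = 0.864) and apart from the control (difference 2.36 ± 0.1, adjusted p = 6.37e-09) and from the Su(var)3-9 mutant (difference 2.14 ± 0.1). Sr-CI, of the same family, rose by 2.24 ± 0.08, and Sr-CII and Sr-CIV fell by 0.5 ± 0.11 and 0.57 ± 0.08, the former not passing after centring (-0.14). NimC1 and crq, for phagocytosis receptors, rose by 1.37 ± 0.09 and 1.18 ± 0.13. Crystal cell genes rose together, with the prophenoloxidase genes PPO2 and PPO1 at 1.28 ± 0.11 and 1.25 ± 0.11 and the Runx factor gene lz at 1.23 ± 0.12. The collagen genes Col4a1 and vkg, which blood cells and fat body both express, differed by 0.15 ± 0.07 and -0.04 ± 0.08 and did not pass.

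Detoxification genes were mixed in direction. Of 71 cytochrome P450 genes 36 rose and 13 fell (median 0.25), and after centring 53 were higher and 8 lower, and after loess 18 and 21. Thus 50.7% rose and 18.3% fell, beside 42.2% and 23.8% of all genes. Cyp6a17 was at 7.76, 7.93 and 7.57 in the control and 10.17, 10.26 and 10.24 in the double mutant (difference 2.47 ± 0.09, adjusted p = 1.82e-09). Cyp6a20, linked to aggression in flies, rose by 1.82 ± 0.09, Cyp6t1 by 1.27 ± 0.13 and Cyp6w1 by 1.22 ± 0.07. The largest fall was that of Cyp4g1, for the oenocyte enzyme that makes cuticular hydrocarbons, at 14.04, 13.58 and 13.86 in the control and 7.95, 10.9 and 8.69 in the double mutant (difference -4.65 ± 0.93, adjusted p = 0.000987). Cyp4p2 fell by 3.41 ± 0.11, Cyp6a18 by 2.35 ± 0.18 and Cyp6a23 by 1.8 ± 0.12, the last a near neighbour of Cyp6a17 in sequence and position. In glutathione and glycosyl transferase genes 16 of 45 (35.6%) rose and 17 (37.8%) fell (after centring 28 higher and 11 lower, after loess 13 and 21). GstE2 at 0.89 ± 0.1 and Ugt35A1 at 0.89 ± 0.07 were among the rises, and GstS1 at -2.01 ± 0.22 and GstE3 at -1.39 ± 0.09 among the falls.

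Odorant-binding protein genes went up in 23 of 44 cases and down in 5 (median 0.31, after centring 38 higher and 5 lower, after loess 13 and 8). That is 52.3% and 11.4%, beside 42.2% and 23.8% of all genes. Obp19b, Obp99d and Obp56h rose by 1.92 ± 0.14, 1.48 ± 0.16 and 1.33 ± 0.11. The falls were those of Obp51a (-4.29 ± 0.22), Obp22a (-2.4 ± 0.18), Obp56f (-2.01 ± 0.18), Obp56i (-1.87 ± 0.13) and Obp56g (-0.55 ± 0.08), and Obp56g also stands in the accessory gland list. Chemoreceptor genes, mostly dim, rose in 9 of 34 cases, a smaller share than the 42.2% of all genes, and none fell, while after centring 32 were higher and 0 lower, and after loess 4 and 2. The rises included Snmp2 at 0.86 ± 0.1 and the coreceptor genes Ir76b and Ir25a at 0.65 ± 0.11 and 0.62 ± 0.08. Cuticle protein genes went up in 23 of 51 cases and down in 6, and after centring 41 were higher and 4 lower, and after loess 10 and 10. The share that rose, 45.1%, was near the 42.2% of all genes, and 11.8% fell beside 23.8%. Cpr49Ac and Lcp65Ac rose by 1.87 ± 0.32 and 1.61 ± 0.12, while Cpr49Ab and Acp65Aa fell by 4.4 ± 0.21 and 4.08 ± 0.28. TwdlG, of the Tweedle family, rose by 1.42 ± 0.14 and was higher than in all 3 other genotypes.

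The median of mitochondrial respiratory chain genes lay below that of all genes on the deposited scale and after each rescaling, while the counts changed with the scale. Of 55 nuclear genes for respiratory chain subunits 50 fell and none rose, with a median of -0.33 beside 0.17 for all genes. After centring each array on its median 8 were higher and 4 lower (median 0.03 beside 0.52). After quantile normalisation 1 was higher and 47 lower (-0.31 beside 0.18), and after loess none were higher and 53 lower (-0.46 beside -0.07). Single differences ran from -1.69 to 0.2. The largest fall was that of ND-B8 (-1.69 ± 0.1), followed by ND-13A (-0.6 ± 0.08) and ND-19 (-0.53 ± 0.07) of complex I. The probe set of ND-B8 was dim, at 5.85, 5.62 and 5.96 in the control and 4.09, 4.25 and 4.03 in the double mutant. Glycolysis genes fell in 9 of 16 cases and rose in 4, and after centring 8 were higher and 1 lower, and after loess 1 and 11. Gapdh1 and Pgk fell by 0.52 ± 0.08 and 0.47 ± 0.09 (Pgk -0.12 after centring, not past the threshold), and Treh, for trehalase, rose by 0.38 ± 0.07. None of 29 ribosomal protein genes passed in limma, 1 had an unadjusted p under 0.05, and their median was 0.01; after centring all 29 were higher and after loess 7 were lower. Proteasome genes rose in 11 of 26 cases (42.3% beside 42.2% of all genes, median 0.2 beside 0.17), so the share that rose was that of all genes. None fell, beside 23.8% of all genes. After centring all 26 were higher, after loess none were higher and 2 lower, and 23 of the 26 were higher than in the egg mutant.

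Several of these housekeeping proteins have a copy expressed in testis, and the paired genes behaved differently. In each of 11 pairs the testis copy fell, by -4.5 to -0.97, while among the somatic copies 2 fell and 2 rose, within -0.51 to 0.33. COX4L, the testis copy of a cytochrome oxidase subunit, was at 9.92, 9.22 and 9.66 in the control and 5.57, 5.68 and 4.93 in the double mutant, and COX4 at 13.17, 13.08 and 13.11 and 13.05, 13.05 and 12.99. The testis copy dropped to the dim end of the scale and the somatic copy hardly moved. The tubulin gene betaTub85D of testis fell by 4.5 ± 0.37 and betaTub56D rose by 0.32 ± 0.07. The proteasome pairs gave -3.2 ± 0.12 for Prosbeta5R1 against 0.13 ± 0.08 for Prosbeta5, -2.76 ± 0.15 for Prosalpha6T against 0.21 ± 0.11 for Prosalpha6, -2.26 ± 0.2 for Prosbeta2R2 against 0.02 ± 0.09 for Prosbeta2, -1.45 ± 0.13 for Prosalpha4T2 against 0.33 ± 0.08 for Prosalpha4, and -0.97 ± 0.11 for Prosalpha3T against 0.06 ± 0.08 for Prosalpha3. In the respiratory and glycolytic pairs COX7AL gave -4.08 ± 0.2 against 0.15 ± 0.07 for COX7A, COX6AL -2.63 ± 0.14 against -0.31 ± 0.07 for levy, ATPsynCF6L -3.45 ± 0.15 against -0.51 ± 0.08 for ATPsynCF6, and Pglym87 -1.9 ± 0.12 against -0.01 ± 0.06 for Pglym78. The rises of betaTub56D and Prosalpha4 did not pass after loess, and the falls of levy and ATPsynCF6 did not pass after centring. Whether array probes of a pair share signal was not tested.

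Most measured genes of the gut, accessory gland and testis lists fell. Of the gut list 40 of 44 fell and 1 rose, of the accessory gland list 27 of 29 fell and 1 rose, and of the testis list 37 of 41 fell. Jon99Fi, for a Jonah digestive protease, was at 11.0, 10.64 and 11.25 in the control and 3.29, 5.75 and 3.77 in the double mutant (difference -6.69 ± 0.98, adjusted p = 9.27e-05). Dup99B, for a peptide of the ejaculatory duct, was at 11.6, 11.22 and 11.55 and 4.42, 5.95 and 4.99 (difference -6.34 ± 0.28, adjusted p = 7.48e-09). Mst77F, for a sperm chromatin protein, was at 11.58, 11.01 and 11.39 and 6.13, 7.61 and 5.91 (difference -4.78 ± 0.4, adjusted p = 7.4e-07). In all 3 the control arrays lie within 1 unit of each other while double mutant replicate 2 is the highest of its group. The exceptions were the gut gene Jon66Ci (0.6 ± 0.12) and EbpIII, for a protein of the ejaculatory bulb (0.31 ± 0.07), which rose.

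Muscle genes fell unevenly. Of 25, 15 fell (60%) and 3 rose (12%), beside 23.8% and 42.2% of all genes. Their median was -0.42, and after centring 9 were higher and 9 lower, and after loess 0 and 17. TpnC4, for a troponin C of flight muscle, showed the largest fall of all genes named, at 12.52, 11.7 and 12.39 in the control and 3.94, 7.41 and 5.11 in the double mutant (difference -6.71 ± 0.95, adjusted p = 7.04e-05). The flightin gene fln, also of flight muscle, was at 13.71, 13.12 and 13.61 and 5.37, 8.74 and 6.42 (difference -6.64 ± 0.9, adjusted p = 4.82e-05). Act88F, the flight muscle actin gene, fell by 4.8 ± 0.63 and Act79B, an actin gene of other adult muscle, by 3.14 ± 0.24. Strn-Mlck, tn and Mf, which act in muscle more widely, rose by 0.43 ± 0.09, 0.32 ± 0.1 and 0.23 ± 0.07, but after loess these rises, at 0.15, 0.11 and 0.13, did not pass. The 3 largest falls of the list were those of flight muscle genes. Ovary and eggshell genes fell in 12 of 33 cases (36.4%) and rose in 5 (15.2%), beside 23.8% and 42.2% of all genes. After centring 12 were higher and 7 lower, and after loess 2 and 14. Among the falls were exu (-4.15 ± 0.32), Cp36 (-3.85 ± 0.36) and osk (-3.04 ± 0.67). The rest of the 30 largest falls ran from -6.24 ± 0.57 for CG12374 to -5.31 ± 0.49 for the maltase gene Mal-A1, and included the trypsin genes betaTry (-5.63 ± 0.94) and alphaTry (-5.37 ± 0.8), the mannosidase genes LManVI (-5.69 ± 0.74) and LManIII (-5.6 ± 0.6), the mucin gene Muc68D (-5.57 ± 0.4), Bace, for an aspartic protease (-5.86 ± 0.76), and Acbp5, for a protein that binds acyl-CoA (-5.98 ± 0.61).

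**Figure D5:**
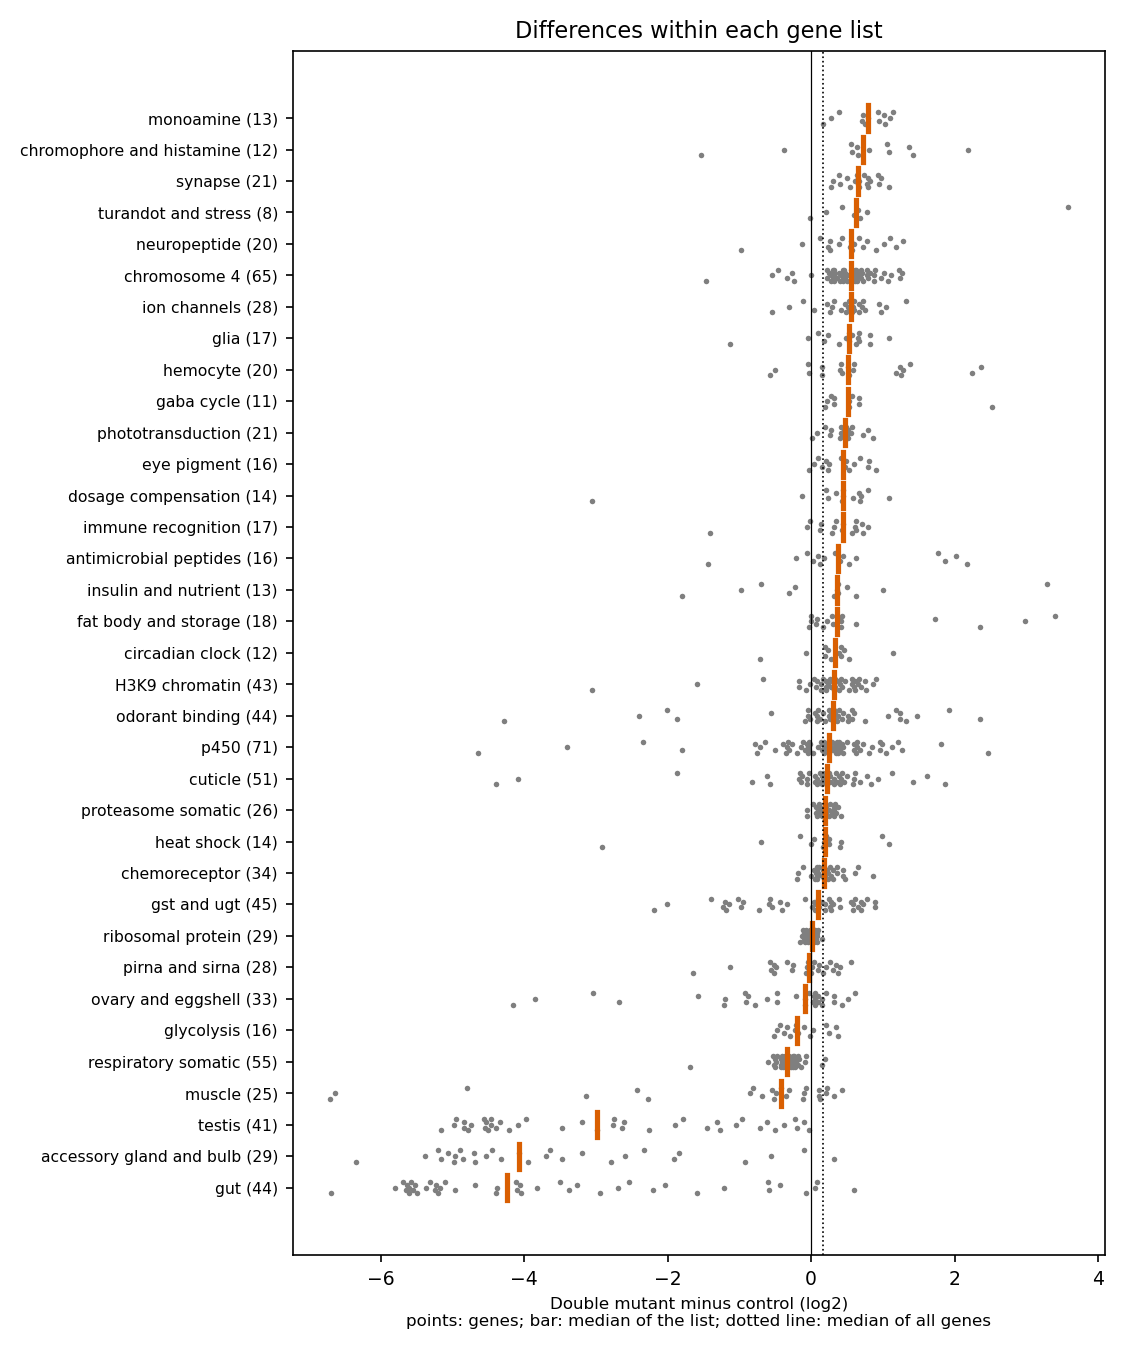
Difference between double mutant and control (log2, horizontal axis) for each member of 34 gene lists and chromosome 4, one point per gene, with the number of measured genes in brackets, a bar at the list's median and a dotted line at the median of all genes. Gut, accessory gland and testis lie far to the left, with medians of -4.24, -4.07 and -2.98, and monoamine, chromophore and synapse genes have the highest medians, 0.79, 0.73 and 0.66.

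Probe sets without a single gene symbol passed less often than all probe sets, of which 40.4% were higher and 17.3% lower. Of 5123 such probe sets, beyond the named genes, 1616 were higher and 277 lower. Of these, the probe set with the largest rise, 1632841_x_at, matches several genes and was at 9.36, 9.73 and 9.67 in the double mutant against 6.02, 5.95 and 5.62 in the control, 6.99, 7.38 and 7.25 in the egg mutant and 7.29, 7.19 and 7.12 in the Su(var)3-9 mutant. The difference was 3.72 ± 0.13 from the control (adjusted p = 1.87e-09), and its level stood apart from both single mutants by 2.38 and 2.39. Among the 627 genes with more than 1 probe set past the threshold, 40 had probe sets of both signs, so a gene's brightest probe set need not speak for all its transcripts.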

How the data were processed

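The authors deposited log2 expression values per probe set, and the submitters' processing notes name RMA and limma, with no version. RMA subtracts background, normalises the arrays against each other and sums up probes, so a change in total RNA per head would not show. One control column, of a technical repeat, was empty and was not used. Affymetrix control probe sets (183 of 18952) were left out. Symbols came from the platform annotation, with 402 probe sets of several genes and 4721 of none, and chromosomes from the Release 6 annotation, which lacked 103 of the single-symbol probe sets.

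Group means of 4 genotypes were fitted to 12 arrays with lmFit and eBayes (limma 3.58.1, R 4.3.3, 8 residual and 4.162 prior degrees of freedom), two-sided, adjusted within each contrast. In simulated data of 18769 probe sets, 68, 66 and 66 were changed by 0.5, 1.0 and 2.0 log2, with independent noise. The fit recovered 58.8%, 98.5% and 100.0% of these, and 7 of its 178 calls were false. In the measured data 10827 probe sets passed, so the simulated setting differs and these rates need not hold for this comparison. Named genes were the 30 largest rises and falls without overlap between groups, all members of lists of up to 12 genes, in longer lists the 8 largest changes, the 3 brightest and any member against the majority, the 12 largest differences on chromosome 4 and in pericentric windows, and the paralog pairs, and the text gives most of these. The members, the lists and the rule were chosen with earlier results of these data known. Alternatives were a fit of the 6 arrays, a replicate block, eBayes with trend and robust, weighted arrays, no probe sets under the 40th percentile, centring, quantile normalisation, cyclic loess, a 1.5-fold minimum, averaged probe sets per gene, and each array omitted in turn. Tables were made in Python with pandas and figures with matplotlib.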

Additional observations from a re-analysis of the deposited data

Results flagged for a closer look

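For 7 genes that stood at least 2-fold apart from all 3 other genotypes, the effect of the egg mutation differed between flies with and without the Su(var)3-9 mutation, by the interaction term of the same fit. These genes were chosen from contrasts that share arrays with this term, so its values are a description and no independent test. That term passed for 2594 genes upward (21.7%) and 3320 downward (27.7%), so passing it does not set these genes apart, and the control arrays, which carry the higher gut, testis and accessory gland levels, enter it. In log2 units the egg effect beside the Su(var)3-9 mutation minus the egg effect without it was 2.47 ± 0.12 for CG14419, 1.58 ± 0.18 for AttD, 1.33 ± 0.2 for CG3588, 1.81 ± 0.31 for lncRNA:CR32368 and 1.66 ± 0.14 for Spn88Eb. It was negative for CG3397, -1.67 ± 0.17, whose level was already high in both single mutants, and for alpha-Est2, -0.92 ± 0.18, which was lowest in the double mutant. Groups of 3 arrays are too small for the test of single outlying arrays, which was not run.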

How the results depend on the processing

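Centring each array on its median gave 14852 probe sets higher, 1888 of them at least 2-fold, and on chromosome 4 a median of 0.91 with 1 gene lower. Quantile normalisation gave 801 higher at least 2-fold. Cyclic loess gave 2988 higher, 147 of them at least 2-fold, and 5016 lower, and on chromosome 4 31 genes higher with a median of 0.28. A 1.5-fold minimum left 652 higher and 1871 lower. The count of genes lower than in all 3 other genotypes was 26 with array weights, 8 after centring and 24 after loess, alternatives added for this count after the data were seen. Leaving out 1 of the 6 arrays gave 6405 to 7541 probe sets higher and 3024 to 3256 lower, 402 to 547 and 1758 to 1934 at least 2-fold, 54 to 56 chromosome 4 genes higher and 4 to 6 lower, 48 to 105 genes higher and 8 to 23 lower than in all 3 other genotypes. The replicate block gave 7306 higher and 3196 lower and changed none of the list counts by over 1.5 times. Same-numbered double mutant and control arrays deviated with r of -0.182, -0.291 and -0.038, and differently numbered ones with r of -0.286 to 0.355. These values show no pairing by number. Being deviations from means of 3 arrays, they cannot exclude that same-numbered samples were processed together. Of 291 genes, 224 kept direction and side of the threshold under the alternatives run on single genes, which leave out the 1.5-fold minimum and averaged probe sets, and without dim probe sets 263 of them could be tested. Opposite signs appeared after centring for ATPsynbeta (0.03), COX4 (0.27), Gyf (0.12), Irk2 (0.05), Pepck1 (0.05), Pglym78 (0.34), Rnf11 (0.09), TotF (0.34), Yp1 (0.35), Yp3 (0.35), fbp (0.13), levy (0.05), tim (0.28) and vkg (0.32), since centring shifts every gene's difference by construction, and after loess for jet (-0.13) and vri (-0.02), where the cause was not tested. The number of arrays limits what can be detected.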
